A study of Mus musculus with 18 samples.

Results

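The 38 genes described here are a hand-written list of cell cycle and DNA replication genes, 19 that act in DNA synthesis and S phase and 19 that act in mitosis. They were picked by name as a readout of how much proliferation remained in cultures of C2C12 myotubes, and their symbols were matched to the gene identifiers of the count table through the GENCODE M39 annotation. All 38 were found among the 55414 genes of the table and all 38 were among the 21772 genes tested, with at least 81 read pairs in every library. C2C12 is a mouse myoblast line whose cells leave the cell cycle and fuse into multinucleated myotubes when serum is withdrawn, while a share of mononucleated cells stays behind. Confluent myoblasts were transfected with pooled siRNAs, differentiated and then kept for 16 h without serum. The 6 groups had 3 libraries each. They were non-targeting siRNA (siNTC), siRNA against Erk3 (siErk3) or siRNA against Mk5 (siMk5), each either in medium with bovine serum albumin as the vehicle (BSA) or in medium with 0.5 mM palmitic acid bound to albumin (PA). Transfection, differentiation and the lack of serum were common to all groups, so none of them is an untreated or a growing myoblast culture. The labels do not say whether the 3 libraries of a group came from separate cultures or days, so that the tests measure the spread between these libraries, which may be technical.

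A dividing cell copies its DNA once in S phase and distributes the copies in mitosis. E2F factors switch on the genes of DNA synthesis at the start of the cycle, once Cdk activity has released them from the retinoblastoma proteins. The Mcm2 to Mcm7 proteins form the replicative helicase, Cdc6 loads it at origins, cyclin E with Cdk2 fires it, Pcna clamps the polymerases to DNA, and ribonucleotide reductase and thymidylate synthase supply the nucleotides. Mitotic genes are switched on later, by the MuvB complex with Mybl2 and Foxm1, and encode the Cdk1 cyclins, the Aurora and Polo kinases, the spindle checkpoint, kinetochore and motor proteins, and the machinery that degrades cyclins. In quiescent and differentiating muscle cells the DREAM complex holds both sets of genes down. RNA from the members is therefore commonly read as a sign of cells that still cycle, in a differentiated myotube culture mostly the mononucleated ones. In bulk RNA, fewer cycling cells and less of these RNAs per cell cannot be told apart.

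The 2 classes are known to differ in the DNA in front of their genes. The sequences of 5 members are shown, chosen after their values were seen, because these genes span the responses described below. RefSeq promoters (GRCm38.p6, 250 bases before to 50 after the start) were available for 31 of the 38 members. They were searched on both strands for the cell cycle homology region (CHR, TTTGAA) and its variants TTTAAA and TTCGAA, for the CCAAT box, and for 4 forms of the E2F site, TTTGGCGC, TTTCCCGC, TTTGCCGC and TTTCGCGC. Capitals mark matches to the main CHR form, to the CCAAT box and to the E2F forms on either strand, but not to the CHR variants, and each sequence is 5′ to 3′ on the strand of its gene. The promoters of Ccnb2 and Cenpf, mitosis members that fell in PA, carry CHR and CCAAT matches.
Ccnb2 (chr9:70421505-70421804, minus strand): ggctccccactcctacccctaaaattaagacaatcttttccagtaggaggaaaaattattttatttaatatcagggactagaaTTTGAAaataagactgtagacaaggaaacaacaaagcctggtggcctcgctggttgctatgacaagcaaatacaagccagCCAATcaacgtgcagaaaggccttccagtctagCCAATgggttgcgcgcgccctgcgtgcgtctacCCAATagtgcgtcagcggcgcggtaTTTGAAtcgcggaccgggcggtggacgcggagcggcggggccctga
Cenpf (chr1:189688037-189688336, minus strand): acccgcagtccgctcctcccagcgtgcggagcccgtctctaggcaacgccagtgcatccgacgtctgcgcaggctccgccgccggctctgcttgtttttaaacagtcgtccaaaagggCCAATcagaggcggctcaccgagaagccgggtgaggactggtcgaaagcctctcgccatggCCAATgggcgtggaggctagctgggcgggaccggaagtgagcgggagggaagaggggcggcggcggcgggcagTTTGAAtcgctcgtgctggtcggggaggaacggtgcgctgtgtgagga
The promoter of Rrm1, the S phase member with the largest decrease in PA, holds CCAAT matches alone. That of Mcm3, which did not pass the test of PA against BSA averaged over the siRNAs, holds CCAAT and E2F matches. That of Pcna, which was higher in PA, holds a CCAAT match.
Rrm1 (chr7:102441445-102441744, plus strand): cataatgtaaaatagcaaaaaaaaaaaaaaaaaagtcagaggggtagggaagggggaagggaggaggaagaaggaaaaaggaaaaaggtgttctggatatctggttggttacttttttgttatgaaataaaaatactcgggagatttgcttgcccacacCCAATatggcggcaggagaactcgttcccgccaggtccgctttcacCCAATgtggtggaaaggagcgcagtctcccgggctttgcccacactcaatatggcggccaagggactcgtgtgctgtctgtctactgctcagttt
Mcm3 (chr1:20820263-20820562, minus strand): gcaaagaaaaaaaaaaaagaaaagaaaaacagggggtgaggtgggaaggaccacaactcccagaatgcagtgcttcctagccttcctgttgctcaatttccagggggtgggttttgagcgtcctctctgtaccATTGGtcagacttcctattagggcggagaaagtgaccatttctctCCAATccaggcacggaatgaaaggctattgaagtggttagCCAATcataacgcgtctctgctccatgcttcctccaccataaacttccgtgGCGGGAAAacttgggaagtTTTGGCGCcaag
Pcna (chr2:132253131-132253430, minus strand): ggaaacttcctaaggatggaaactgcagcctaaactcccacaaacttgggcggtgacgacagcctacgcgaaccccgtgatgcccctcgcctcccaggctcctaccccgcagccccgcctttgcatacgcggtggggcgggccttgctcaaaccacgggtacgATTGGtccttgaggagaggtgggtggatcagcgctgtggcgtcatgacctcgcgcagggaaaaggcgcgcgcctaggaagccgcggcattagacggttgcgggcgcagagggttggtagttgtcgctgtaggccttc

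Over all matched members, TTTGAA was found in 11 of 15 mitosis promoters and in 3 of 16 S phase promoters, against 17.9% of all 32851 promoters in the table. With the variants counted, it was found in 15 of 15 and in 7 of 16, against 28.8%. CCAAT stood in 14 of 15 and 12 of 16 promoters, against 37.4%. An E2F form stood in 1 mitosis promoter, that of Cdk1, and in 7 of 16 S phase promoters (Cdc6, Cdk2, E2f2, Mcm3, Mcm5, Mcm6 and Mcm7), against 2.26%. These are matches of letters in a window of 300 bases and were not tested as binding sites. Aurkb, Ccna2, Ccne2, Exo1, Foxm1, Kif20a and Mcm4 had no entry in the promoter table.

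The libraries held 13041979 to 28496727 assigned read pairs, the fewest in siNTC BSA replicate 1. The share of pairs assigned to the ribosomal gene Rn18s-rs5 ran from 1.497% to 12.9% and was highest in siMk5 BSA (8.39% to 12.9%) and lowest in siErk3 BSA (1.497% to 2.96%). Mapk6, which encodes Erk3, was at 55.2 to 60.4 CPM (counts relative to the library total, scaled by the trimmed mean of M values) in siErk3 BSA against 129.0 to 135 in siNTC BSA, and at 109 to 131 against 215 to 244 in PA, so it was called lower in both media. Mapkapk5, which encodes Mk5, was at 1.18 to 2.01 CPM in siMk5 BSA against 2.32 to 2.54 in siNTC BSA and at 2.17 to 2.43 against 2.52 to 3.92 in PA. The groups did not overlap, but at this level neither comparison passed the test (FDR 0.469 in both, edgeR quasi-likelihood).

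The first question was whether cell cycle RNA changed when the myotubes met palmitic acid. All 19 mitosis members fell in PA, in each of the 3 siRNA backgrounds, by 1.61-fold (Ccnb1) to 2.55-fold (Ccnb2) when averaged over the siRNAs. The S phase members fell less and not together, since 9 of 19 were called lower, with Rrm1 lowest at 1.97-fold, and none was called higher in the average. A gene was called when its FDR was below 0.05 and its fold change above 1.3, in an edgeR quasi-likelihood fit of all 18 libraries. By this rule 19.4% of all tested genes were called lower and 17.9% higher in the average, 37.3% in all, and the 28 of 38 members called lower stand against that background. The median log2 fold change was -1.13 over the mitosis members and -0.30 over the S phase members, against -0.02 over all genes tested. Of all tested genes, 17.2% had a log2 fold change as low as that of Ccnb1, the mitosis member that changed least.

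The separation was visible in the scaled levels (CPM) of the single libraries. For each of the 19 mitosis members, the highest of the 9 PA libraries lay below the lowest of the 9 BSA libraries. Among the S phase members this held for 10 of 19, and 1 more, Pcna, had all PA libraries above all BSA libraries, while the media overlapped for Ccne2, Cdk2, Mcm2, Mcm3, Mcm6, Cdc6, E2f1 and Exo1. Over all tested genes, 14.4% had their PA libraries all lower and 18.4% all higher. With the medium permuted within each siRNA, the exact two-sided permutation p was 0.00025 for the 19 mitosis members and for 11 S phase members, which is the smallest p that this design can give. Any gene whose media separate fully reaches this p, so at least the 14.4% and 18.4% of all tested genes given above do. Their full share at this p was not computed. Within 1 siRNA, 3 against 3 libraries cannot go below an exact p of 0.1.

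**Figure D1:**
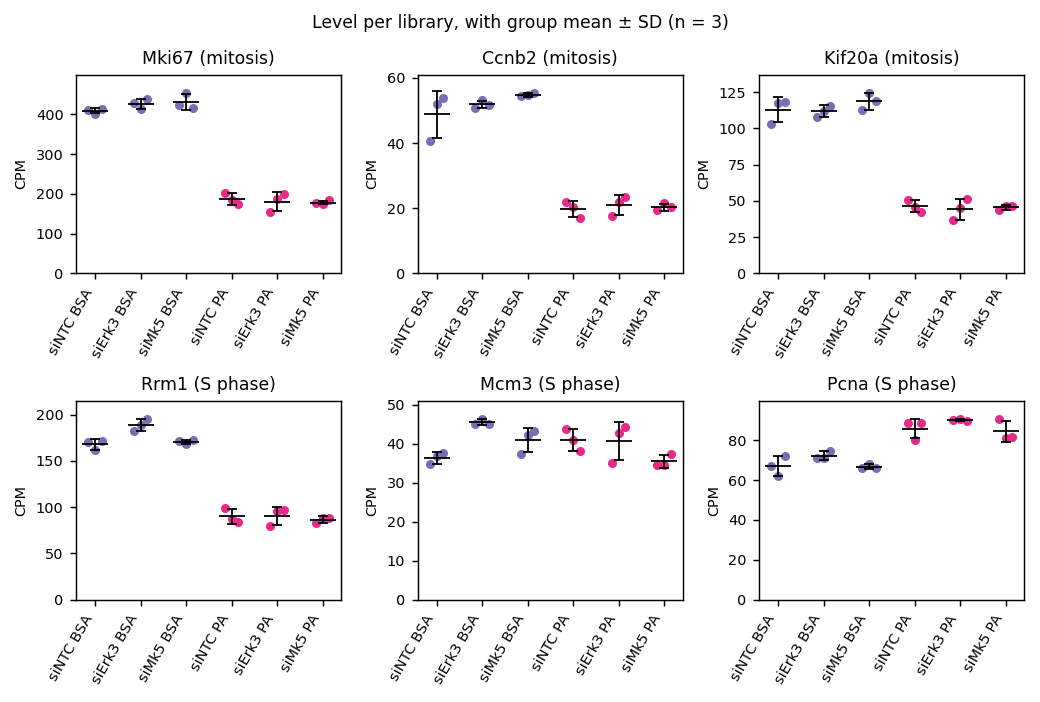
Level of 6 members in CPM (vertical axis from 0) in each library of the 6 groups, BSA in violet and PA in pink, with the group mean (bar) and SD (n = 3). The PA libraries of Mki67, Ccnb2, Kif20a and Rrm1 sit below all BSA libraries, those of Mcm3 overlap them, and those of Pcna (80.1 to 90.7 CPM) sit above them (62.1 to 74.8 CPM).

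Among the mitosis members, Mki67, Top2a and Cdc20 had high levels per length. The siNTC libraries held 412, 401 and 412 CPM of Mki67 in BSA and 202, 185 and 173 CPM in PA. The siErk3 levels were 427, 413 and 439 CPM in BSA and 153, 187 and 199 CPM in PA, and the siMk5 levels 423, 454 and 416 CPM and 176, 175 and 183 CPM. Mki67 (ENSMUSG00000031004, chr7:135291513-135318090, minus strand of GRCm39) encodes the proliferation antigen Ki-67, which coats mitotic chromosomes, and every PA library was at 202 CPM or less, while every BSA library was at 400.9 or more. The mean difference over the siRNAs was -1.22 ± 0.0366 (log2, SE), 2.33-fold lower in PA (FDR 5.49e-23). For Top2a, the siNTC level was 310.3, 296 and 305 CPM in BSA and 162, 144 and 131 CPM in PA. Under siErk3, BSA gave 311, 309.7 and 321 CPM and PA 118, 151 and 164 CPM, and under siMk5, BSA gave 311, 308 and 306 CPM and PA 139, 145 and 144 CPM. Top2a (ENSMUSG00000020914, chr11:98883769-98915015, minus strand), the topoisomerase that untangles sister chromatids, was thus lower in every PA library than in any BSA library. PA lay 2.14-fold lower over the 3 siRNAs, a log2 fold change of -1.10 ± 0.042 (SE, FDR 2.24e-20). Levels of Cdc20 in siNTC were 64, 73.6 and 73.4 CPM in BSA and 42.9, 43.5 and 43.4 CPM in PA. In siErk3 it was 77.9, 75.9 and 78.7 CPM in BSA against 42.2, 48.4 and 47.9 CPM in PA, and in siMk5 72, 77.1 and 76.5 CPM against 41.6, 45 and 42.7 CPM. Cdc20 (ENSMUSG00000006398, chr4:118290098-118294549, minus strand) activates the ubiquitin ligase that starts anaphase, and its groups did not overlap between media. Averaged over the siRNAs, the log2 fold change was -0.75 ± 0.0331 (SE), or 1.68-fold lower in PA (FDR 7.6e-19).

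The kinetochore and spindle checkpoint genes were among those with the smallest FDR. The siNTC libraries held 174, 163 and 169.5 CPM of Cenpf in BSA and 71.6, 68.5 and 65.3 CPM in PA. The siErk3 levels were 158, 158 and 166 CPM in BSA and 57.2, 65.4 and 73.6 CPM in PA, and the siMk5 levels 179, 176 and 160.2 CPM and 67.5, 68.3 and 69.4 CPM. Cenpf (ENSMUSG00000026605, chr1:189372803-189420283, minus strand) encodes a large kinetochore protein of G2 and mitosis, and its PA levels lay below those of BSA in all 3 backgrounds. The mean difference over the siRNAs was -1.31 ± 0.0353 (log2, SE), 2.48-fold lower in PA (FDR 2.95e-24). For Cenpe, the siNTC level was 103, 93.1 and 98.5 CPM in BSA and 47.1, 50.5 and 45.7 CPM in PA. Under siErk3, BSA gave 96.6, 91.3 and 100 CPM and PA 41.9, 49.3 and 47.1 CPM, and under siMk5, BSA gave 100, 105.1 and 97.5 CPM and PA 45.4, 47.2 and 45.7 CPM. Cenpe (ENSMUSG00000045328, chr3:134918298-134979372, plus strand), the kinetochore motor, showed the same separation. PA lay 2.10-fold lower over the 3 siRNAs, a log2 fold change of -1.07 ± 0.033 (SE, FDR 9.27e-23). Levels of Bub1b in siNTC were 61.8, 63.7 and 65.9 CPM in BSA and 29.8, 29.3 and 28.1 CPM in PA. In siErk3 it was 65.9, 67.7 and 67.2 CPM in BSA against 25.8, 29.3 and 31.5 CPM in PA, and in siMk5 65.6, 69.7 and 66.4 CPM against 26.8, 25.9 and 30.2 CPM. Bub1b (ENSMUSG00000040084, chr2:118428692-118472072, plus strand) encodes the checkpoint protein BubR1, and its media were apart in all 3 backgrounds. Averaged over the siRNAs, the log2 fold change was -1.21 ± 0.0357 (SE), or 2.31-fold lower in PA (FDR 3.33e-23). The siNTC libraries held 34.1, 33.6 and 35.8 CPM of Bub1 in BSA and 18.7, 15.8 and 16.7 CPM in PA. The siErk3 levels were 35.7, 37.9 and 36.4 CPM in BSA and 16.9, 17 and 19 CPM in PA, and the siMk5 levels 36.8, 35.4 and 35.4 CPM and 15.6, 17.8 and 17.8 CPM. Bub1 (ENSMUSG00000027379, chr2:127643036-127673785, minus strand), a checkpoint kinase, was lower in each PA library than in each BSA library. The mean difference over the siRNAs was -1.05 ± 0.0397 (log2, SE), 2.07-fold lower in PA (FDR 1.76e-20).

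Motors and regulators of the spindle and of cytokinesis followed. For Kif11, the siNTC level was 74.6, 74.3 and 79.7 CPM in BSA and 36, 33.3 and 31 CPM in PA. Under siErk3, BSA gave 81, 81 and 83.7 CPM and PA 26.9, 32.4 and 39 CPM, and under siMk5, BSA gave 73, 77.4 and 79.1 CPM and PA 33.8, 33.2 and 33.2 CPM. Kif11 (ENSMUSG00000012443, chr19:37364851-37410307, plus strand), the motor that pushes the spindle poles apart, had its lowest value in siErk3 PA replicate 1. PA lay 2.36-fold lower over the 3 siRNAs, a log2 fold change of -1.24 ± 0.0436 (SE, FDR 2.95e-21). Levels of Kif20a in siNTC were 103, 118 and 118 CPM in BSA and 50.4, 46.1 and 42.3 CPM in PA. In siErk3 it was 108, 112 and 116 CPM in BSA against 36.8, 45.1 and 51.2 CPM in PA, and in siMk5 113, 125 and 119 CPM against 43.5, 46.7 and 46.3 CPM. Kif20a (ENSMUSG00000003779, chr18:34757666-34766330, plus strand), a motor of the central spindle, also had its lowest value there. Averaged over the siRNAs, the log2 fold change was -1.34 ± 0.0441 (SE), or 2.52-fold lower in PA (FDR 5.77e-22). The siNTC libraries held 39.6, 42 and 42.2 CPM of Birc5 in BSA and 18.9, 17.4 and 15.6 CPM in PA. The siErk3 levels were 45, 44.8 and 46.5 CPM in BSA and 13.2, 17.3 and 19.1 CPM in PA, and the siMk5 levels 42, 43.6 and 42.5 CPM and 16.7, 18 and 18 CPM. Birc5 (ENSMUSG00000017716, chr11:117740077-117746569, plus strand) encodes survivin, a subunit of the chromosomal passenger complex, and its media did not overlap. The mean difference over the siRNAs was -1.33 ± 0.0469 (log2, SE), 2.52-fold lower in PA (FDR 2.88e-21). For Ccna2, the siNTC level was 114, 109 and 117 CPM in BSA and 59.8, 57 and 46.7 CPM in PA. Under siErk3, BSA gave 114, 119.8 and 127 CPM and PA 42.4, 52.3 and 57.8 CPM, and under siMk5, BSA gave 119, 126 and 123 CPM and PA 49, 51.7 and 55.6 CPM. Ccna2 (ENSMUSG00000027715, chr3:36619014-36626299, minus strand) encodes cyclin A2, which acts in both S phase and G2, and is counted here with the mitosis members. PA lay 2.26-fold lower over the 3 siRNAs, a log2 fold change of -1.18 ± 0.0448 (SE, FDR 2.01e-20). Levels of Foxm1 in siNTC were 66.8, 69.5 and 71.5 CPM in BSA and 38.4, 40.5 and 36.5 CPM in PA. In siErk3 it was 80.2, 77 and 77 CPM in BSA against 33.1, 36.7 and 41.9 CPM in PA, and in siMk5 69.9, 72.5 and 76.3 CPM against 35.7, 36.5 and 39.5 CPM. Foxm1 (ENSMUSG00000001517, chr6:128339930-128353109, plus strand), a transcription factor of the mitotic genes, was higher in each BSA than in each PA library. Averaged over the siRNAs, the log2 fold change was -0.96 ± 0.0363 (SE), or 1.95-fold lower in PA (FDR 1.62e-20).

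The other mitosis members, outside the 12 given above, numbered 7. Ccnb2, a cyclin of Cdk1, changed most, with 40.7 to 55.5 CPM in the BSA libraries and 17.1 to 23.3 CPM in the PA libraries. The passenger complex kinase Aurkb and the Polo kinase Plk1 were 2.19-fold and 2.27-fold lower in PA. The smallest decreases were those of Ccnb1 (1.61-fold), the spindle pole kinase Aurka (1.65-fold), the ubiquitin-conjugating enzyme of anaphase Ube2c (1.66-fold), Cdc20 (1.68-fold) and Cdk1 (1.70-fold). The decreases thus fell into a group of 5 genes with log2 fold changes from -0.76 to -0.69 and 14 genes from -1.35 to -0.96. The standard errors of these averages were 0.033 to 0.052, smaller than the gap between -0.96 and -0.76, but the difference between the 2 sets of genes was seen in the values and was not tested. Pseudogenes are annotated for Ccnb1 and Ccnb2, whose reads can be shared with them.

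**Figure D2:**
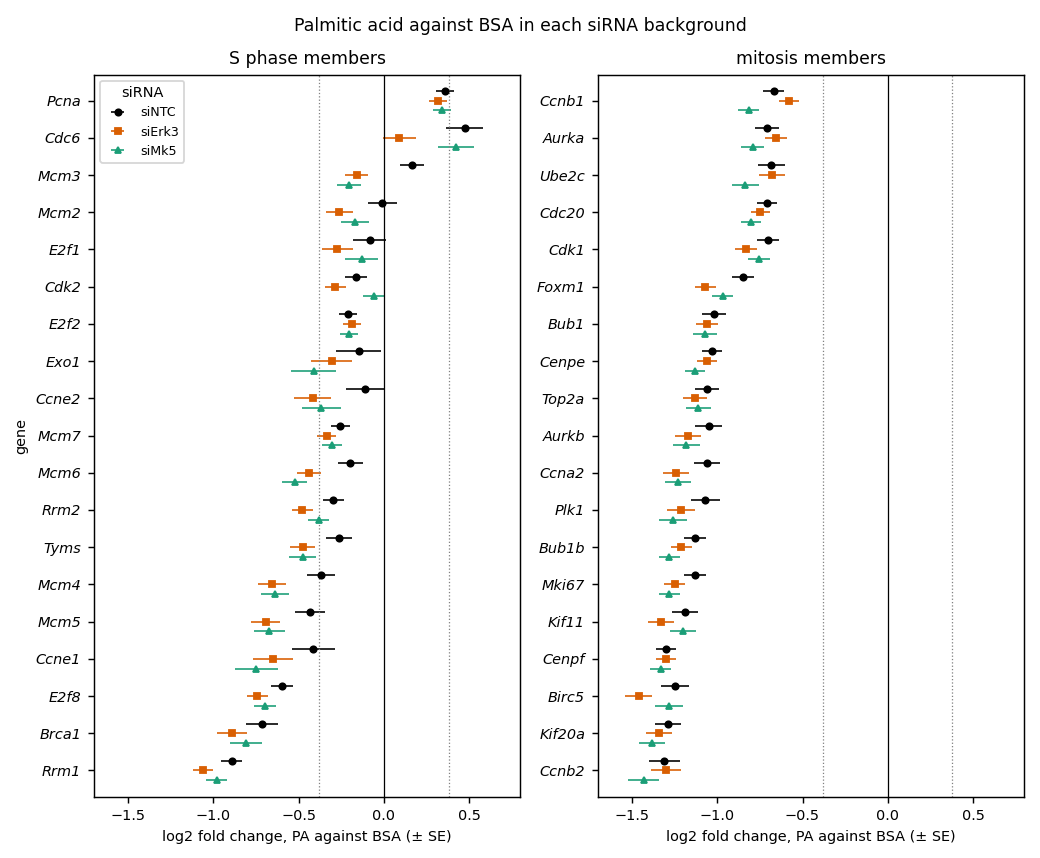
Log2 fold change of PA against BSA (horizontal axis, points with SE) for each S phase member (left) and mitosis member (right) in siNTC, siErk3 and siMk5. Dotted lines mark a 1.3-fold change in either direction. The mitosis members lie between -0.58 and -1.46 in all 3 backgrounds, while the S phase members spread from -1.06 to 0.47.

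The S phase members are given by role, beginning with the enzymes that make DNA precursors. The siNTC libraries held 171, 162 and 171 CPM of Rrm1 in BSA and 99.5, 86.7 and 84.5 CPM in PA. The siErk3 levels were 183, 189 and 196 CPM in BSA and 79.4, 95.5 and 96.6 CPM in PA, and the siMk5 levels 171, 169 and 173 CPM and 82.9, 88.3 and 88.9 CPM. Rrm1 (ENSMUSG00000030978, chr7:102090902-102118978, plus strand) encodes the large subunit of ribonucleotide reductase and its PA libraries all lay at 99.5 CPM or less. The mean difference over the siRNAs was -0.98 ± 0.035 (log2, SE), 1.97-fold lower in PA (FDR 4.25e-21). For Rrm2, the siNTC level was 126, 131 and 134 CPM in BSA and 113, 104.8 and 100 CPM in PA. Under siErk3, BSA gave 147, 144 and 151 CPM and PA 91.8, 107 and 119 CPM, and under siMk5, BSA gave 139, 133 and 141 CPM and PA 103, 104.7 and 109.5 CPM. Rrm2 (ENSMUSG00000020649, chr12:24758240-24764145, plus strand), the small subunit of the same enzyme, had the highest level per length of all members, and its change just passed 1.3-fold. PA lay 1.31-fold lower over the 3 siRNAs, a log2 fold change of -0.39 ± 0.0351 (SE, FDR 3.41e-11). Leaving out siErk3 PA replicate 1 or siNTC PA replicate 3 brought Rrm2 to -0.36 and -0.37, under the 1.3-fold limit. Thymidylate synthase, Tyms, which makes the thymine nucleotide and has an annotated pseudogene, ran from 25.9 to 31.0 CPM in BSA and from 18.04 to 23.92 CPM in PA (1.32-fold lower, log2 fold change -0.40 ± 0.0439 SE).

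The 6 subunits of the Mcm2 to Mcm7 helicase did not change alike. Mcm5 (-0.60 ± 0.0509), Mcm4 (-0.55 ± 0.0474) and Mcm6 (-0.39 ± 0.0419) were called lower in PA (log2 fold change ± SE over the siRNAs). Mcm7 (-0.30 ± 0.033) and Mcm2 (-0.15 ± 0.0471) passed the FDR but not the fold limit. Mcm3 (-0.07 ± 0.041, FDR 0.167) passed neither. Levels of Mcm6 in siNTC were 65.7, 75.3 and 71.2 CPM in BSA and 67.5, 61 and 57 CPM in PA. In siErk3 it was 85.1, 87.9 and 86.7 CPM in BSA against 54.4, 64.4 and 73.4 CPM in PA, and in siMk5 72.7, 78.2 and 76.1 CPM against 50.1, 53.3 and 54.8 CPM. Mcm6 (ENSMUSG00000026355, chr1:128259327-128287401, minus strand) overlapped between media, since siNTC PA replicate 1 and siErk3 PA replicate 3 lay above siNTC BSA replicate 1. Averaged over the siRNAs, the log2 fold change was -0.39 ± 0.0419 (SE), or 1.31-fold lower in PA (FDR 1.64e-09). Its call was lost, at -0.37 to -0.35, when any 1 of 5 libraries was left out (siNTC BSA replicate 2, siMk5 BSA replicate 2, siNTC PA replicate 3, siErk3 PA replicate 1 or siMk5 PA replicate 1). The values of Mcm3 are given in full because it separates from the other subunits, a choice made after they were seen. For Mcm3, BSA gave 34.7, 36.8 and 37.6 CPM in siNTC, 45.1, 46.4 and 44.9 in siErk3 and 37.4, 42.2 and 43.2 in siMk5. In PA, Mcm3 was at 43.7, 40.8 and 38.1 CPM in siNTC, 35.2, 42.7 and 44.2 in siErk3 and 34.6, 34.5 and 37.4 in siMk5. Mcm3 was therefore higher in each PA than in each BSA library of siNTC (0.16 ± 0.0722, FDR 0.0643). It was lower in each PA than in each BSA library of siErk3 (-0.16 ± 0.0689, FDR 0.0567) and of siMk5 (-0.21 ± 0.072, FDR 0.02). The siMk5 difference alone passed the FDR, none reached 1.3-fold, and none was called. Reads of Mcm7 can be shared with the microRNA genes Mir25 and Mir93, which overlap 3.89% of its exonic length.

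Pcna and Cdc6 were the members above 0 in the average. The siNTC libraries held 66.9, 62.1 and 72 CPM of Pcna in BSA and 88.4, 80.1 and 88.8 CPM in PA. The siErk3 levels were 71.1, 71.1 and 74.8 CPM in BSA and 90.2, 90.5 and 89.5 CPM in PA, and the siMk5 levels 66.1, 68.1 and 66 CPM and 90.7, 81.1 and 81.4 CPM. Pcna (ENSMUSG00000027342, chr2:132091082-132095234, minus strand) encodes the sliding clamp of replication and repair, and each PA library exceeded each BSA library. The mean difference over the siRNAs was 0.34 ± 0.0316 (log2, SE), 1.26-fold higher in PA (FDR 6.18e-11). This passed the FDR but not the 1.3-fold limit, and 2 pseudogenes are annotated for Pcna. Cdc6, the loader of the helicase, stood at 7.73, 6.71 and 7.80 CPM in siNTC BSA and 10.6, 10.3 and 9.80 CPM in siNTC PA, and was called higher there (1.39-fold, FDR 0.000424). It was chosen for this description after its values were seen. It was also called higher in siMk5 (1.34-fold, 6.76, 8.76 and 6.66 CPM in BSA and 10.5, 9.74 and 9.39 in PA). In siErk3, whose BSA libraries were at 10.1, 10.1 and 8.94 CPM, PA gave 9.24, 10.8 and 11 CPM, a log2 fold change of 0.09 ± 0.0968 (FDR 0.487). The difference between siErk3 and siNTC in this response was -0.38 ± 0.144 (FDR 0.621), which did not pass the test.

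Among the cyclin E and E2F genes, Ccne1, the cyclin that fires origins with Cdk2, was called lower (4.38 to 7.54 CPM in PA against 7.80 to 10.2 in BSA, 1.52-fold). Its relative Ccne2 (-0.30 ± 0.0643) and Cdk2 itself (-0.17 ± 0.0358) passed the FDR but not 1.3-fold. The repressor E2f8 was called lower (-0.68 ± 0.0359, 27.9 to 33.4 CPM in PA against 43.7 to 52.3 in BSA). The activators E2f2 (-0.20 ± 0.0293) and E2f1 (-0.16 ± 0.0551) did not reach 1.3-fold. Of the repair genes, Brca1, of homologous recombination, was 1.75-fold lower, while the exonuclease Exo1, the member with the lowest level per length, gave -0.29 ± 0.0739 (FDR 0.00113). The S phase members thus ran from Rrm1 and Brca1, within the range of the mitosis members, to Pcna and Cdc6 above 0.

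Within the single backgrounds, 24 members were called lower and 1 higher in siNTC, 29 and 0 in siErk3, and 29 and 1 in siMk5. The share of all tested genes called lower was 15.1%, 16.3% and 14.6%, and the share called higher 15.5%, 15.8% and 15.1%. The 19 mitosis members made up most of the lower calls in each. S phase members called lower numbered 5 in siNTC (Ccne1, Mcm5, E2f8, Brca1 and Rrm1) and 10 each in siErk3 and siMk5. DESeq2 called 26, 29 and 30 members in all. The median log2 fold change of the S phase members was -0.21 in siNTC, -0.42 in siErk3 and -0.38 in siMk5, and that of the mitosis members was -1.06, -1.17 and -1.18. Whether the response differed between backgrounds was tested directly, as the interaction of silencing and medium. No member was called for siErk3 or for siMk5 (edgeR quasi-likelihood), where the share of all tested genes called was 0.0367% and 0.211%. At an unadjusted p under 0.05 there were 8 members for siErk3 and 3 for siMk5, against 6.10% and 7.43% of all tested genes (DESeq2 gave 5 and 3 at that level and called 0). All of them had a log2 fold change of PA against BSA below that in siNTC. For members that fell in PA this is a larger decrease, as for Mcm4 (-0.37 in siNTC, -0.65 in siErk3 and -0.64 in siMk5). For siErk3 the difference was widest for Cdc6, given above, and next for Mcm3 at -0.32 ± 0.0998 (FDR 0.481), while for siMk5 it was widest for Mcm3 at -0.37 ± 0.102 (FDR 0.179). The median interaction over the 38 members was -0.14 for siErk3, and -0.18 to -0.11 under other ways of processing. For siMk5 it was -0.10, and -0.10 to 0.05 under them, so its sign depended on the processing. Both interactions share the siNTC libraries.

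**Figure D3:**
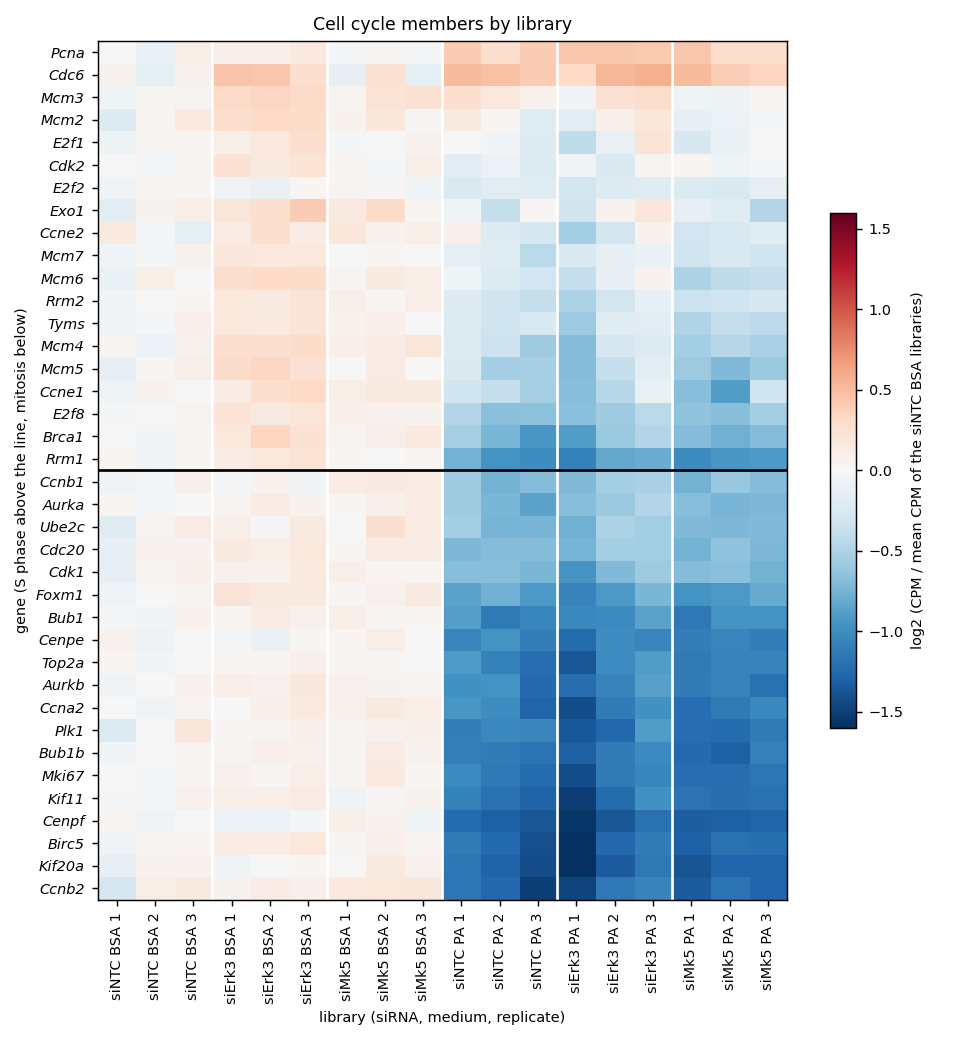
Log2 ratio of each member's CPM to its mean over the siNTC BSA libraries, by library (columns, 3 for each siRNA and medium), with S phase members above the line and mitosis members below, each sorted by the mean PA difference. The 9 PA columns are blue for all mitosis members, and siErk3 PA replicate 1 is the darkest column.

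Within some groups the members deviated together from library to library. In siErk3 PA, replicate 1 had the lowest value of its group for 36 of 38 members and replicate 3 the highest for 34. The summed level of the mitosis members was 775, 923 and 997 CPM in the 3 siErk3 PA libraries, 973, 914 and 851 CPM in siNTC PA, and 869, 895 and 905 CPM in siMk5 PA. In BSA these sums were 1860 to 1945 CPM in siNTC, 1936 to 2012 CPM in siErk3 and 1954 to 2029 CPM in siMk5. The spread within siErk3 PA was thus wider than any difference between siRNAs in PA, yet narrower than the distance between the media. The S phase sums ran from 695 to 846 CPM in PA and from 902 to 1076 CPM in BSA. In all, the members took 0.281% to 0.320% of the assigned pairs in the BSA libraries and 0.144% to 0.179% in the PA libraries. Without siErk3 PA replicate 1, the number of members called in siErk3 was 26 instead of 29, and the median interaction of siErk3 over the members was -0.05 instead of -0.14.

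The second question was whether silencing Erk3 or Mk5 changed the members. No member was called in siErk3 against siNTC in BSA, where 0.785% of all tested genes were called. DESeq2 also called 0. At an unadjusted p under 0.05 there were 16 members, all higher in siErk3, 14 of them of S phase, by edgeR, and 14 members by DESeq2, while 10.6% of all tested genes had such a p and 7.14% had it and were higher. The S phase members had a median log2 fold change of 0.20, with 18 of 19 above 0, and the mitosis members one of 0.08, with 15 of 19 above 0, against a median of 0.02 and 54.9% above 0 over all tested genes. The siErk3 libraries all exceeded the siNTC libraries for 16 of 19 S phase and 7 of 19 mitosis members, and no member showed the opposite, against 11.5% and 5.94% of all tested genes. Members deviated together here too, since siNTC BSA replicate 1 was lowest in its group for 23 of 38 members and replicate 3 highest for 28. These counts of members are therefore not separate observations, as only 3 libraries stand against 3. The differences between siErk3 and siNTC were small, however, and 2 members passed the FDR alone, as did 1.21% of all tested genes. Mcm3 was at 34.7 to 37.6 CPM in siNTC and 44.9 to 46.4 CPM in siErk3 (log2 fold change 0.32 ± 0.0708 SE, FDR 0.0146), and Mcm6 at 65.7 to 75.3 and 85.1 to 87.9 CPM (0.29 ± 0.0712, FDR 0.0366). Cdc6 had the largest difference (0.40 ± 0.105, FDR 0.0572). Other subunits of the helicase gave Mcm2 (0.29 ± 0.0806), Mcm5 (0.28 ± 0.0844) and Mcm4 (0.28 ± 0.0796), all with an FDR above 0.05. The Rn18s-rs5 share was 1.497% to 2.96% in siErk3 BSA and 2.56% to 7.17% in siNTC BSA, and its part in these differences was not tested beyond a fit with that share as a covariate, which called 3 members, Mcm2, Mcm3 and Mcm5.

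In PA the median log2 fold change of siErk3 against siNTC was 0.01 over the S phase and -0.04 over the mitosis members. No member was called by edgeR or DESeq2 or had an unadjusted p under 0.05 by either tool, while 0.556% of all tested genes were called and 8.28% had such a p. Mcm3, for example, was at 43.7, 40.8 and 38.1 CPM in siNTC PA and 35.2, 42.7 and 44.2 CPM in siErk3 PA (-0.01 ± 0.0703). The standard errors of the members in this comparison were 0.051 to 0.129, against 0.05 to 0.123 in BSA. The difference between the media is the interaction given above, in which no member was called.

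For siMk5 no member was called in either medium by edgeR or DESeq2, where 0.0643% of all tested genes were called in BSA and 0.547% in PA. In BSA, which shares its siNTC libraries with the siErk3 comparison, 37 of 38 members were above 0 with a median log2 fold change of 0.07, against 53.9% above 0 of all tested genes, but that median was -0.04 with scaling by total counts, which shifts all genes by -0.114 in this comparison, and -0.03 with the Rn18s-rs5 share as a covariate. Only Mcm3 (0.16 ± 0.0724, FDR 0.666) and Ccnb1 (0.13 ± 0.0578, FDR 0.667) had an unadjusted p under 0.05 by edgeR, and 1 member had one by DESeq2, against 6.89% of all tested genes by edgeR. In PA 4 of 38 members were above 0, against 50.6% of all tested genes, with a median of -0.04 that was 0.01 with scaling by total counts and 0.00 without siNTC PA replicate 1. In PA 5 S phase members had an unadjusted p under 0.05 (3 by DESeq2), against 6.79% of all tested genes. Of these, Mcm6 (-0.23 ± 0.0744, FDR 0.256), Mcm3 (-0.21 ± 0.0718), Mcm5 (-0.20 ± 0.0924) and Tyms (-0.16 ± 0.079) were below 0 and Cdk2 (0.14 ± 0.0629) above it. Averaged over the media, neither siRNA gave a call by either tool (0.919% and 0.211% of all tested genes were called for siErk3 and siMk5), with 15 members at an unadjusted p under 0.05 for siErk3 and 0 for siMk5 by edgeR, against 11.8% and 6.73% of all tested genes, and 12 and 0 by DESeq2.

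**Figure D4:**
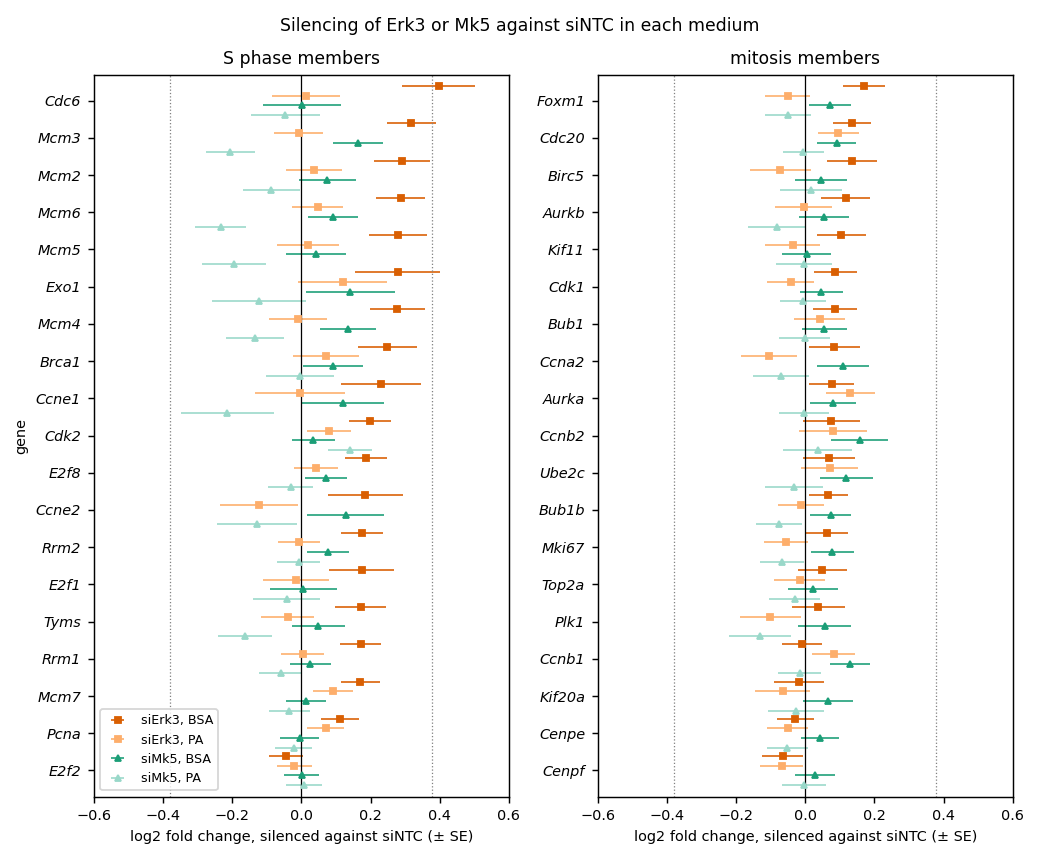
Log2 fold change of siErk3 (squares) and siMk5 (triangles) against siNTC in BSA (dark) and PA (pale), with SE, for each S phase member (left) and mitosis member (right), sorted by siErk3 in BSA. Dotted lines mark 1.3-fold. The siErk3 BSA points of the S phase members lie from -0.04 to 0.40 and those in PA from -0.12 to 0.12.

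The members sit in a wider network, for which 118 further genes in 8 lists were examined in the average of PA against BSA, in which 19.4% of all tested genes were called lower and 17.9% higher. Of the kinetochore, spindle and cytokinesis genes, 26 of 26 were called lower, with a median log2 fold change of -0.97. Examples were Prc1 (-1.21 ± 0.034) and Kif23 (-1.30 ± 0.041), which bundle and drive the central spindle, Kif2c (-1.27 ± 0.042), a motor that shortens microtubules, and Hmmr (-0.91 ± 0.032), a spindle assembly factor (log2 fold change ± SE). The replication origin and fork genes were split, with 15 called lower and 4 higher of 30 and a median of -0.37. Thymidine kinase Tk1 (-1.28 ± 0.052), the DNA polymerase subunit Pole (-0.98 ± 0.051) and the DNA ligase Lig1 (-1.03 ± 0.059) fell. The licensing factor Cdt1 (1.17 ± 0.050), which loads the helicase together with Cdc6, rose, as did the origin recognition subunits Orc2 (0.78 ± 0.033), Orc4 (0.57 ± 0.035) and Orc1 (0.71 ± 0.116). Cdt1 stood at 7.94 to 9.67 CPM in siNTC BSA and at 21.6 to 23.7 CPM in siNTC PA.

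Among the 5 D cyclin and Cdk genes that open the cycle, Ccnd2 rose (1.64 ± 0.028) and Ccnd3, the D cyclin of differentiated muscle, fell (-0.60 ± 0.026), while Ccnd1 (0.32 ± 0.028), Cdk4 (0.31 ± 0.029) and Cdk6 (0.17 ± 0.034) did not reach 1.3-fold. Ccnd2 stood at 49.4 to 58.0 CPM in siNTC and siErk3 BSA and at 159 to 179 CPM in the same siRNAs in PA. Of the Cdk inhibitors, 4 of 6 tested were called lower (Cdkn3, -1.59 ± 0.092, Cdkn2c, -1.40 ± 0.057, Cdkn2d, -1.23 ± 0.046, and Cdkn1c, -0.64 ± 0.069), none higher, and Cdkn1a (-0.32 ± 0.023) and Cdkn1b (-0.15 ± 0.032) stayed under 1.3-fold. Cdkn2a and Cdkn2b had 0 counts in all libraries. In the list of pocket proteins, DREAM subunits and E2F partners, 4 of 16 were called lower and 3 higher, which is near the 19.4% and 17.9% of all tested genes, and the median was -0.11. Of those called, the repressor E2f7 (-1.25 ± 0.068), the pocket proteins Rbl2 (-0.76 ± 0.039) and Rbl1 (-0.61 ± 0.046) and the E2F partner Tfdp2 (-0.66 ± 0.034) fell, and the MuvB subunits Lin52 (0.50 ± 0.054) and Lin54 (0.49 ± 0.042) and the repressor E2f6 (0.43 ± 0.030) rose.

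Of the homologous recombination and DNA damage signaling genes, 9 of 16 were called lower, with Fanca (-1.43 ± 0.085), Fancd2 (-1.32 ± 0.063) and Brca2 (-1.11 ± 0.067) among them, and Atm, the kinase that senses double-strand breaks, was called higher (0.62 ± 0.032). Of 12 p53 target genes, 8 were called higher and none lower. The stress response gene Sesn2 (1.88 ± 0.047), Gadd45a (1.05 ± 0.025), which binds Pcna, Bbc3 (0.94 ± 0.061) and Bax (0.93 ± 0.035), which promote apoptosis, and Mdm2 (0.85 ± 0.047), the ligase that degrades p53, rose. Cdkn1a, itself a p53 target but listed above with the Cdk inhibitors, went the other way, with a decrease under 1.3-fold. Of the 5 histone and histone chaperone genes, 3 were called lower, namely Asf1b (-0.65 ± 0.044), which hands histones to new DNA, the linker histone H1f0 (-0.64 ± 0.042) and the centromere gene Cenpu (-0.81 ± 0.087). In siErk3 against siNTC in BSA, 2 of the 118 genes were called, both higher, against 0.785% of all tested genes, so that this count is no result about the lists. They were Mybl2 (0.54 ± 0.102, FDR 0.00219, 7.52 to 8.08 CPM in siNTC and 10.4 to 11.9 CPM in siErk3), the MuvB partner that activates mitotic genes, and Cdt1 (0.38 ± 0.096, FDR 0.0389). In siErk3 against siNTC in PA, in both siMk5 comparisons and in both interactions no gene of these 8 lists was called.

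**Figure D5:**
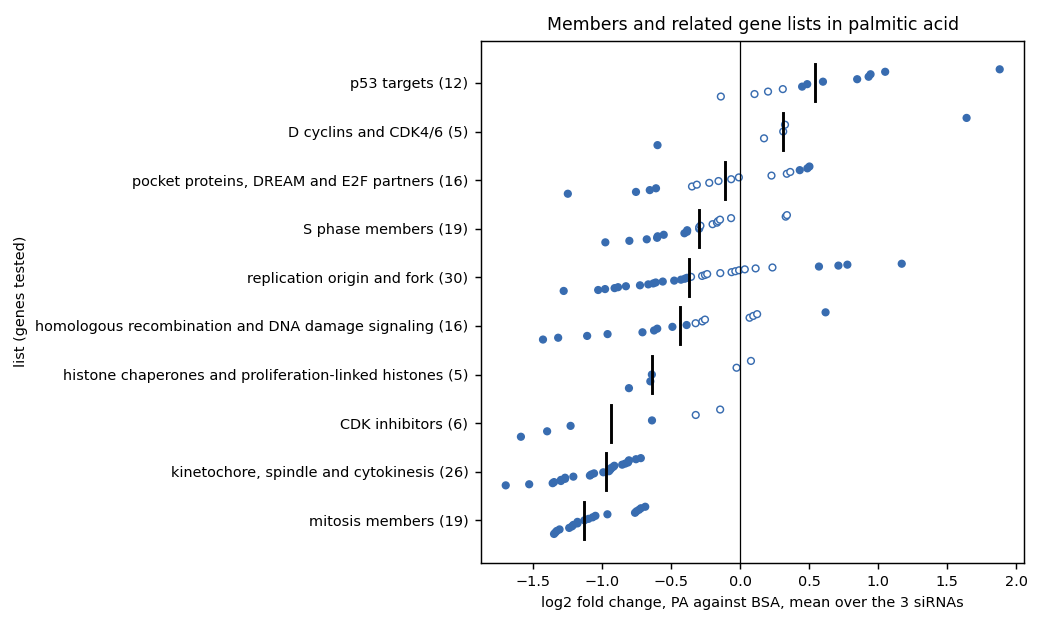
Log2 fold change of PA against BSA, averaged over the 3 siRNAs (horizontal axis), for every tested gene of the member classes and of 8 related lists. Filled points were called, open points were not, and the bar is the median of the list, from -1.13 for the mitosis members to 0.54 for the p53 targets.

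Markers of the cell types were read beside these results. The 12 myotube markers summed to 9972 to 13270 CPM in the libraries, with no undifferentiated culture to compare them with. Of the 5 adipocyte markers none passed the filter (Adipoq, Plin1, Cidec, Lep and Cfd had 0 to 6 counts over the 18 libraries). The 10 markers of myoblasts and reserve cells summed to 411 to 458 CPM in BSA and 357 to 396 CPM in PA. In the average of PA against BSA, 19.4% of all tested genes were called lower and 17.9% higher. Of these 10 markers, 4 were called lower and 1 higher there. Pax7 (-1.01 ± 0.057), Myod1 (-0.82 ± 0.039), Id3 (-0.81 ± 0.090) and Cd34 (-0.68 ± 0.031) fell and Sdc4 (0.42 ± 0.036) rose. Of the 12 myotube markers 5 were called lower and none higher, among them Myog (-0.50 ± 0.025) and the fusion factors Mymk (-0.38 ± 0.025) and Mymx (-0.52 ± 0.039). The 6 fibroblast markers, of which C2C12 cultures are known to express collagens, summed to 8547 to 10830 CPM in BSA and 2599 to 4646 CPM in PA, with 5 of 6 called lower, Col1a1 (-1.42 ± 0.061) and Col3a1 (-1.39 ± 0.070) among them. Of the tested markers, 7 of 10 for myoblasts and reserve cells, 11 of 12 for myotubes and 5 of 6 for fibroblasts were below 0, and the part of these cell types in the decrease of the members was not tested. In siErk3 against siNTC in BSA, no marker of myoblasts and reserve cells was called, and 3 of 12 myotube markers were called higher and none lower, against 0.785% of all tested genes in either direction. They were Myh8 (0.57 ± 0.055), Actn2 (0.48 ± 0.054) and Myh3 (0.39 ± 0.051). The 12 did not move together, with 7 above 0 and 5 below and a median of 0.03. The siErk3 libraries all lay above those of siNTC for 4 of the 12. They all lay below for 3 (Tnnt1, -0.18 ± 0.053, Tnnt3, -0.15 ± 0.050, and Myog, -0.05 ± 0.043). Over all tested genes these shares were 11.5% and 5.94%. The myotube markers summed to 12030 to 13270 CPM in siErk3 and 10890 to 11590 CPM in siNTC. Their part in the siErk3 values of the members was not tested.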

How the data were processed

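RNA from C2C12 myotubes was sequenced as poly(A)-selected, stranded libraries, 18 in all, 3 in each of 6 groups defined by siRNA and medium. Per the methods, reads were trimmed with TrimGalore and cutadapt and aligned with STAR, and duplicates were marked with Picard. Per the file headers, the authors counted primary read pairs with featureCounts 2.0.0 (strand setting 2, minimum mapping quality 3) over Ensembl 105 genes on GRCm39, and the counts were deposited unscaled. The labels name mm10, whereas the header names GRCm39, which was used here. A second deposited table of log2-scaled values was not used.

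Symbols and positions came from GENCODE M39. The 21772 genes whose counts summed to 10 or more over the libraries were fitted with edgeR 4.0.16 (quasi-likelihood, TMM scaling, 1 coefficient per group, all 18 libraries) in R 4.3.3, with Benjamini-Hochberg adjustment (FDR). Comparisons were PA against BSA within each siRNA and averaged, each siRNA against siNTC within each medium and averaged, and the interactions, 12 in all. Exact permutation tests used log2(CPM + 0.1). DESeq2 1.42.0 was an alternative, besides other scalings, filters, criteria, sample sets, a replicate block, an Rn18s-rs5 covariate and leaving out each library. Checked on simulated counts, the fit of PA against BSA in siNTC over 21331 genes called 199 of 200 genes changed by 1 (log2) and 5 others. The changed genes were drawn from those with higher counts, went up and down in equal number and were far fewer than those called in the data. Smaller changes, such as those seen with silencing, were not simulated. No pair of libraries within a group matched within sampling noise.

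The members and lists were chosen with earlier results of these data known. All members were accounted for. Values in every library were given for the 12 with the smallest FDR and the 3 of each class with the highest level per kilobase, and of other lists at most 8 called genes by smallest FDR were named. Exceptions are marked. Promoters came from RefSeq on GRCm38.p6, another build than that of the counts, and no coordinates were converted.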

Additional observations from a re-analysis of the deposited data

How the results depend on the processing

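The number of members called in siErk3 against siNTC in BSA was 0 as reported. It was 1 without a filter on low counts, 2 with the FDR alone, 1 with the libraries of the 2 groups alone, 3 with the Rn18s-rs5 share as a covariate and 1 with scaling by total counts, an alternative chosen after seeing the data. Leaving out 1 library at a time gave 0 to 1, with 1 call without siMk5 BSA replicate 2 or 3 or siErk3 PA replicate 1 or 3. The cause was not tested. For PA against BSA the count kept within 1.5 times of its value under every alternative run, with 25 to 33 in siNTC, 29 to 36 in siErk3, 25 to 35 in siMk5 and 26 to 37 in the average, the highest of each with the FDR alone. Leaving out 1 library gave 24 to 26, 26 to 31, 28 to 30 and 25 to 28. In the other silencing comparisons and both interactions the count was 0 under every alternative run. No called value changed sign. With the Rn18s-rs5 covariate Mcm6 (-0.36) and Rrm2 (-0.38) fell short of 1.3-fold in the average. The scaling factors differed between PA and BSA by -0.104 in siNTC, -0.106 in siErk3 and 0.0542 in siMk5 (log2). Scaling by total counts shifts all genes by as much, in siMk5 in the opposite direction to the other siRNAs. The average over the siRNAs has no fit limited to the groups compared.

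Same-numbered libraries showed no common pairing, since the mean correlation of their deviations from the group means was -0.006 over 15 pairs of groups, and in 0 of the 15 were all correlations over 0.1. Single correlations ran from -0.509 (siNTC PA with siErk3 PA) to 0.439 (siErk3 PA with siMk5 PA), so deviations in the PA groups were not unrelated. With the replicate block the counts of members called were 25, 29, 30 and 28 for PA against BSA and 0 elsewhere, as without it. Members with low counts, such as Exo1 and Ccne1, had standard errors near the upper end of those given, so that small differences in them can have been missed. A difference of several standard errors could also go uncalled, as for Cdc6 in siErk3 against siNTC in BSA (0.40 ± 0.105, edgeR FDR 0.0572).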
